A study of Rattus norvegicus with 38 samples.

Results

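Liver RNA of 13 untreated male rats aged 18 months was compared with that of 5 untreated male rats aged 6 months. The 13 older rats were the arrays whose titles carry 18 months and came from the beta-myrcene (5 rats), 5-hydroxymethyl-2-furfural (5 rats) and isoeugenol (3 rats) studies, and the 5 younger rats were all those of the pulegone study. Together they were 18 of the 38 arrays of the series, and all 18 share 1 way of writing the age in their titles. The question was which genes differed between these ages, and how each of the 3 studies of 18 months stood against the same pulegone rats.

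All rats were of the inbred F344 (Fischer) strain and were sentinels, animals housed alongside a long toxicity study to watch over the health of its room. The chemical in a group's name is therefore that of the study a rat was housed with, and none of these rats was dosed. The younger rats were about 32 weeks old and the older ones about 84 weeks. RNA from each rat's left liver lobe was labelled with Cy5 and hybridised on a 2-colour Agilent rat oligonucleotide array against 1 Cy3-labelled pool, made from 63 such rats (25 at about 32 weeks, 25 at about 58 weeks and 13 at about 84 weeks). Pulegone is 1 study, so age and study cannot be told apart in anything below: a difference is between the older rats and these 5 younger ones.

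Rat liver is a sexually dimorphic organ. In adult males, growth hormone reaches the hepatocyte in pulses that activate the transcription factor STAT5B, and this pattern keeps male-biased genes such as Cyp2c11 on, while the steadier female pattern favours another set of genes. Hepatocytes also make cholesterol and fatty acids under transcription factors of the SREBP family, rarely divide in the adult, and share the tissue with Kupffer cells (its resident macrophages), lymphocytes, stellate cells, endothelium and bile duct cells.

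The deposited value of a probe is a score without a physical unit: each array had a mean near 0 and an SD near 1 over its 20277 probes, so a score of 1 is 1 SD of that array's log ratios, above the pool if positive. The scores of an array lie on an even grid, and 1 step of it was assumed to be a log ratio of 0.001. On that assumption the SD behind a score ran from 0.245 to 0.475 over the 18 arrays. Log ratios recovered that way are given where a size is wanted, and another step would scale them all. The base of that logarithm is not given in the sources used here. It was read as log2, and as log10 kept to 4 decimals the sizes would be 0.332 times as large. How the values were scaled and centred before deposit is unknown. The labelled dyes gave the direction, so a reversed dye assignment would turn every direction below. How far a spot stood above background cannot be read from the scores, and precision is limited by how many arrays there are. The DMPT and pyrogallol rats, also aged 6 months, were not in the comparison. Their study means correlated negatively over all probes with those of the pulegone study (r = -0.251 and -0.289) and of the 3 studies of 18 months (r from -0.345 to -0.486), and which way their ratios ran is not settled. Rat 2 of the 5-hydroxymethyl-2-furfural study stood apart: its median correlation with the other 17 arrays was 0.118, against 0.247 to 0.603 for each of those arrays.

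Between 18 months and the 6-month pulegone rats, 833 of 20277 probes (4.11%) passed an adjusted p of 0.05, 540 higher and 293 lower at 18 months. These values come from limma's moderated test with study as a random block, adjusted by Benjamini-Hochberg over all probes, and so does each adjusted p below that names no other contrast. With 1 probe standing for each gene, 446 of 9650 genes passed (4.62%), 303 higher (3.14%) and 143 lower (1.48%), and the median difference over all genes was 0.0126. Without rat 2 of the 5-hydroxymethyl-2-furfural study the count of probes was 719. It was 505 without pulegone rat 2, 528 without beta-myrcene rat 1 and 533 without pulegone rat 4. In 196 genes (2.03%) all 13 older rats lay beyond all 5 pulegone rats, 139 of them above and 57 below. With study ignored 778 probes passed, so the random block did not make the count smaller. The estimated correlation between rats of 1 study was -0.0079 in these 18 arrays and 0.264 in the 28 arrays that also hold the 12-month rats, and with the latter 8 probes passed. Those 8 were among the 833. They stood for Hao2, Marveld1, Sh2d2a and Cish, all lower at 18 months, Acsm2 and Pla1a, both higher, and 2 probes with no gene listed. With all 38 arrays in the fit 41 passed, all among the 833, and with each study's mean as 1 value none passed (1828 at an unadjusted p below 0.05). Most calls below therefore measure the older rats against the spread between rats and not against the spread between studies. Each array was 1 rat, and the labels do not say whether the rats of a study were processed together. Of 120 genes that passed and were followed one by one, 38 lost the call without pulegone rat 2, 31 without pulegone rat 4, 29 without pulegone rat 5, 28 without beta-myrcene rat 1 and 14 without rat 2 of the 5-hydroxymethyl-2-furfural study. Since bulk RNA was measured, fewer cells of a type and less RNA per cell cannot be told apart in any result.

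Each of the 3 studies of 18 months was also set against the same 5 pulegone rats in 1 fit that shared an estimate of the spread between rats. Their mean, weighting the studies equally, differed from pulegone in 901 probes (4.44%). The beta-myrcene rats differed in 480 probes (2.37%; 298 higher, 182 lower), the 5-hydroxymethyl-2-furfural rats in 403 (1.99%; 309 higher, 94 lower) and the isoeugenol rats in 578 (2.85%; 348 higher, 230 lower). These counts moved by more than 1.5 times when single rats were left out. For beta-myrcene the count was 281 without its rat 2, 316 without its rat 5 and 295 without pulegone rat 5. For 5-hydroxymethyl-2-furfural it was 223 without its rat 3, 212 without its rat 4, and 214, 233 and 225 without pulegone rats 2, 4 and 5. For isoeugenol it was 221 without its rat 1 and 265 without its rat 3. The 3 comparisons share their controls, so the 108 genes (1.12%) past the threshold in all 3 with 1 sign are given only as the set from which genes with large differences were named. Each study by itself held genes past the threshold in the main lists. Of all genes, 1.64% rose and 1.02% fell for beta-myrcene, 1.71% and 0.57% for 5-hydroxymethyl-2-furfural, and 1.94% and 1.27% for isoeugenol. Of 14 male-biased genes 5, 1 and 6 fell in that order, and of 31 cell cycle genes 5, 4 and 6. Of 17 cholesterol synthesis genes 2, 4 and 8 rose, and of 28 macrophage genes 7, 6 and 2.

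**Figure D1:**
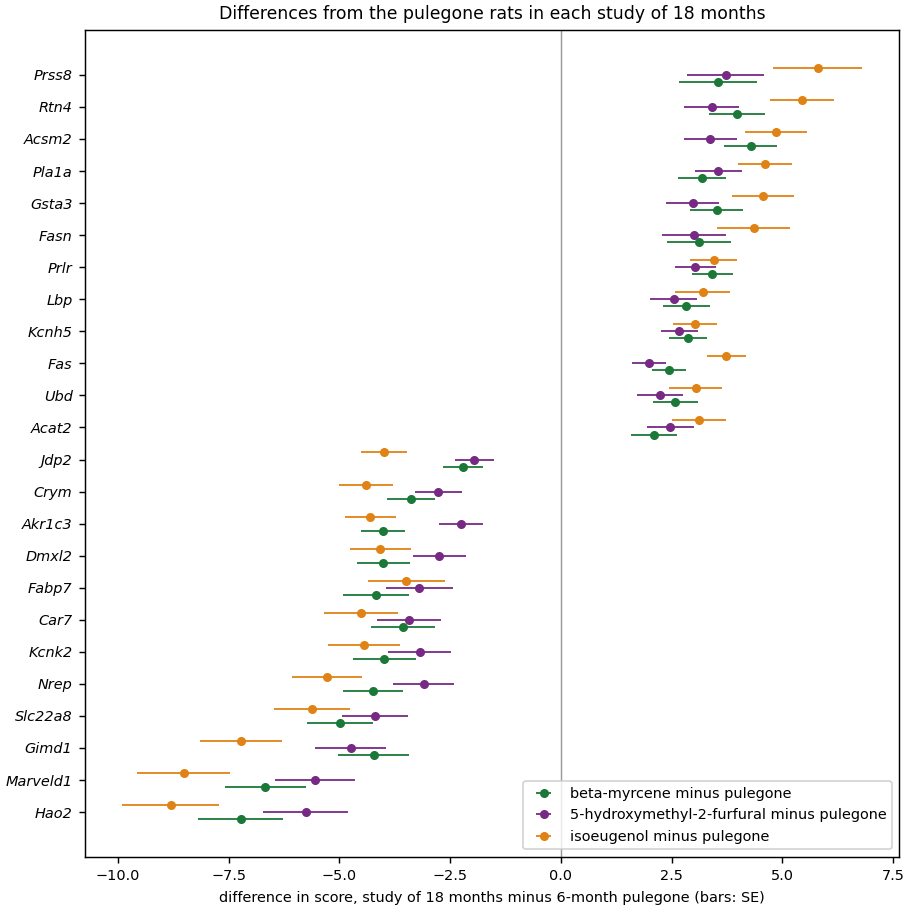
Difference in score (x axis, in SDs of an array) between each study of 18 months and the 6-month pulegone rats, for the 12 genes with the largest and the 12 with the most negative mean difference among genes past the threshold in all 3 studies; points are differences, bars their SE. The 3 studies lie on 1 side of 0 for each gene, as the choice of genes requires.

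Set against each other, the 3 studies of 18 months differed in few probes past the threshold. These contrasts came from the same fit, so the pulegone rats entered only the shared estimate of the spread between rats. The F test over the 3 studies passed for 1 probe of 20277 (0.00493%), which has no gene listed (1739 probes at an unadjusted p below 0.05). No probe passed between beta-myrcene and 5-hydroxymethyl-2-furfural (1793 unadjusted) or between beta-myrcene and isoeugenol (1326 unadjusted), by limma, the one tool run. Between 5-hydroxymethyl-2-furfural and isoeugenol 5 probes passed (0.0247%; 1416 unadjusted). A p that misses the threshold does not show that the studies were alike. Without rat 2 of the 5-hydroxymethyl-2-furfural study the F test passed for 131 probes, the contrast with isoeugenol for 169 and the contrast with beta-myrcene for 49. The F test passed for 16 without beta-myrcene rat 1.

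The 8 genes with the smallest p of the F test were Jchain, Ptn, Aatf, Cyp26b1, Bltp3b, Pwp1, Apoh and Adap2, with adjusted p from 0.0688 to 0.204, so none passed.

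The single named gene among the 5 probes that differed between 5-hydroxymethyl-2-furfural and isoeugenol was Jchain, which encodes the joining chain of polymeric IgA and IgM made by plasma cells. Its scores were 3.24, 4.52, 4.77, 4.28 and 5.13 in the 5-hydroxymethyl-2-furfural rats. They were 1.51, -1.60, 0.71, 1.31 and 2.27 in the beta-myrcene rats and 0.79, 0.73 and -0.55 in the isoeugenol rats. All 5 of the former lay above all others of 18 months, and above the pulegone rats at 1.40, 0.98, 1.20, 0.29 and 0.42. The difference from isoeugenol was 4.07 (adjusted p = 0.0483). With single rats left out, the number of probes past the threshold in that contrast ranged from 0, without isoeugenol rat 3, to 169, without rat 2 of the 5-hydroxymethyl-2-furfural study. The other plasma cell and B cell genes measured were few. Sdc1, a surface proteoglycan that plasma cells share with hepatocytes and epithelium, rose at 18 months as a whole (difference 1.58, SE 0.25, adjusted p = 0.000924), and the B cell genes Ms4a1 and Cd79b had differences of -0.17 and -0.29 (adjusted p = 0.891 and 0.716).

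Of 14 male-biased liver genes measured, 6 fell and 1 rose, with a median difference of -2.06, against 1.48% of all genes lower and 3.14% higher. The number that fell ranged from 4, without pulegone rat 2, to 8 when single rats were left out. None of the 14 passed in the 28 arrays (lowest adjusted p = 0.0771). Slc22a8, an organic anion transporter, had scores of 0.80, 2.47, 1.80, 2.21 and 1.42 in the pulegone rats. At 18 months they were -1.67, -3.87, -4.49, -0.84 and -5.34 in the beta-myrcene rats, -0.95, -1.54, -3.52, -3.72 and -2.56 in the 5-hydroxymethyl-2-furfural rats and -3.98, -3.61 and -4.04 in the isoeugenol rats. All 13 older rats lay below all pulegone rats (difference -4.82, SE 0.62, adjusted p = 0.000181; log ratio -1.55). Isoeugenol rats lay close together near -4, and beta-myrcene rats 1 and 4 were the nearest to the pulegone rats.

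The other members that fell were Stac3 (difference -6.72, SE 1.32, adjusted p = 0.00499), the male-specific P450 Cyp2c11 (difference -4.23, SE 0.93, adjusted p = 0.012), the steroid dehydrogenase Hsd3b5 (difference -3.76, SE 0.85, adjusted p = 0.0146), the sulfotransferase Sult1c3 (-1.64, adjusted p = 0.00589) and Rgn, regucalcin, a calcium-binding protein of hepatocytes (-1.60, adjusted p = 0.00669). Ces2c, a carboxylesterase, went the other way and rose (difference 1.29, SE 0.26, adjusted p = 0.00644). Cyp3a2, another male-specific P450, had the largest difference of the list at -10.76, but with an SE of 3.40 it did not pass (adjusted p = 0.0929). Its scores ran from -1.69 to 0.98 in the pulegone rats. In the older rats they were -1.86, -19.38, -13.31, -1.72 and -19.42 in the beta-myrcene rats, -2.03, -1.69, -3.55, -13.05 and -9.93 in the 5-hydroxymethyl-2-furfural rats and -21.62, -13.24 and -21.79 in the isoeugenol rats. All 3 isoeugenol rats were far below the pool, whereas beta-myrcene rats 1 and 4 and 5-hydroxymethyl-2-furfural rats 1 and 2 were no lower than -2.03, and 12 of the 13 older rats lay below all pulegone rats.

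The mean score over the 14 genes was -0.23, 0.84, 0.29, 0.41 and -0.19 in the pulegone rats and below every one of these in all 13 older rats. It was -1.11, -4.37, -3.72, -0.63 and -4.81 for beta-myrcene, -0.78, -1.54, -1.84, -2.82 and -2.47 for 5-hydroxymethyl-2-furfural and -4.17, -3.13 and -4.25 for isoeugenol. The spread between rats within the beta-myrcene study (SD 1.93) was thus wider than in the 5-hydroxymethyl-2-furfural (SD 0.801) and isoeugenol (SD 0.624) studies. The list medians of the difference were -2.20 for beta-myrcene, -1.60 for 5-hydroxymethyl-2-furfural and -2.89 for isoeugenol.

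Of 20 female-biased genes measured, 6 rose and 1 fell (median difference 0.57), against 3.14% of all genes higher and 1.48% lower. By study 5, 3 and 8 rose and 2, 1 and 2 fell for beta-myrcene, 5-hydroxymethyl-2-furfural and isoeugenol. The list mean was -0.682 to -0.564 in the pulegone rats, and the beta-myrcene rats overlapped them at -0.555, 0.0785, -0.748, -0.568 and -0.629. It was -0.381 to -0.162 in the 5-hydroxymethyl-2-furfural rats and -0.188 to 0.146 in the isoeugenol rats. Of the 13 older rats 10 lay above all pulegone rats and 1 below all of them. Prlr, the prolactin receptor, scored -2.37, -3.34, -2.29, -3.35 and -3.37 in the pulegone rats. At 18 months its scores were -0.73, 1.75, 0.50, -0.34 and 1.23 in the beta-myrcene rats, -1.13, 1.03, -0.035, 0.57 and 0.042 in the 5-hydroxymethyl-2-furfural rats and 0.44, 0.56 and 0.52 in the isoeugenol rats. Every older rat lay above every pulegone rat (difference 3.28, SE 0.36, adjusted p = 0.000169), and the 3 study differences were close to each other, at 3.42 for beta-myrcene, 3.04 for 5-hydroxymethyl-2-furfural and 3.45 for isoeugenol. Acsm2, a medium-chain acyl-CoA synthetase (difference 4.06, SE 0.53, adjusted p = 0.000181), the P450 Cyp2a1 (difference 2.20, SE 0.42, adjusted p = 0.00421), the fatty acid transporter Cd36 (difference 2.08, SE 0.29, adjusted p = 0.000299), the transcriptional cofactor Trim24 (2.41, adjusted p = 0.0402) and the conjugate exporter Abcc3 (0.71, adjusted p = 0.00444) also rose. Another probe of Trim24 gave a larger difference (6.85, adjusted p = 0.00154). The member that fell was Hao2, a peroxisomal hydroxy acid oxidase, with scores of 0.59, 3.53, 1.62, 2.91 and 2.34 in the pulegone rats. They were -2.99, -7.31, -5.83, -2.28 and -6.76 in the beta-myrcene rats, -1.74, -3.90, -3.05, -4.55 and -4.60 in the 5-hydroxymethyl-2-furfural rats and -7.49, -4.82 and -7.54 in the isoeugenol rats. No older rat overlapped with a younger one, and the difference was -7.03 (SE 0.90, adjusted p = 0.000169), a log ratio of -2.21. Sex differences themselves were not measured, since all rats were male.

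Of 19 genes of the growth hormone and IGF axis only Cish passed, and it fell, against 1.48% of all genes lower. Cish encodes a cytokine-inducible SH2 protein, a feedback inhibitor of STAT5 signalling that STAT5 itself switches on. Scores were -0.053, 0.78, 0.44, 0.81 and 0.58 in the pulegone rats. They were -1.19, -1.43, -1.68, -0.66 and -1.97 in the beta-myrcene rats, -0.63, -1.42, -1.33, -1.88 and -1.87 in the 5-hydroxymethyl-2-furfural rats and -2.66, -2.74 and -3.03 in the isoeugenol rats. All 13 older rats were lower, and the isoeugenol rats were the lowest of all (difference -2.24, SE 0.33, adjusted p = 0.000491). The difference was -1.90 for beta-myrcene, -1.94 for 5-hydroxymethyl-2-furfural and -3.32 for isoeugenol, and the F test among those studies gave an adjusted p of 0.212. The growth hormone receptor Ghr (-0.82, adjusted p = 0.357) and another STAT5 target, Socs2 (-0.46, adjusted p = 0.74), did not pass.

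**Figure D2:**
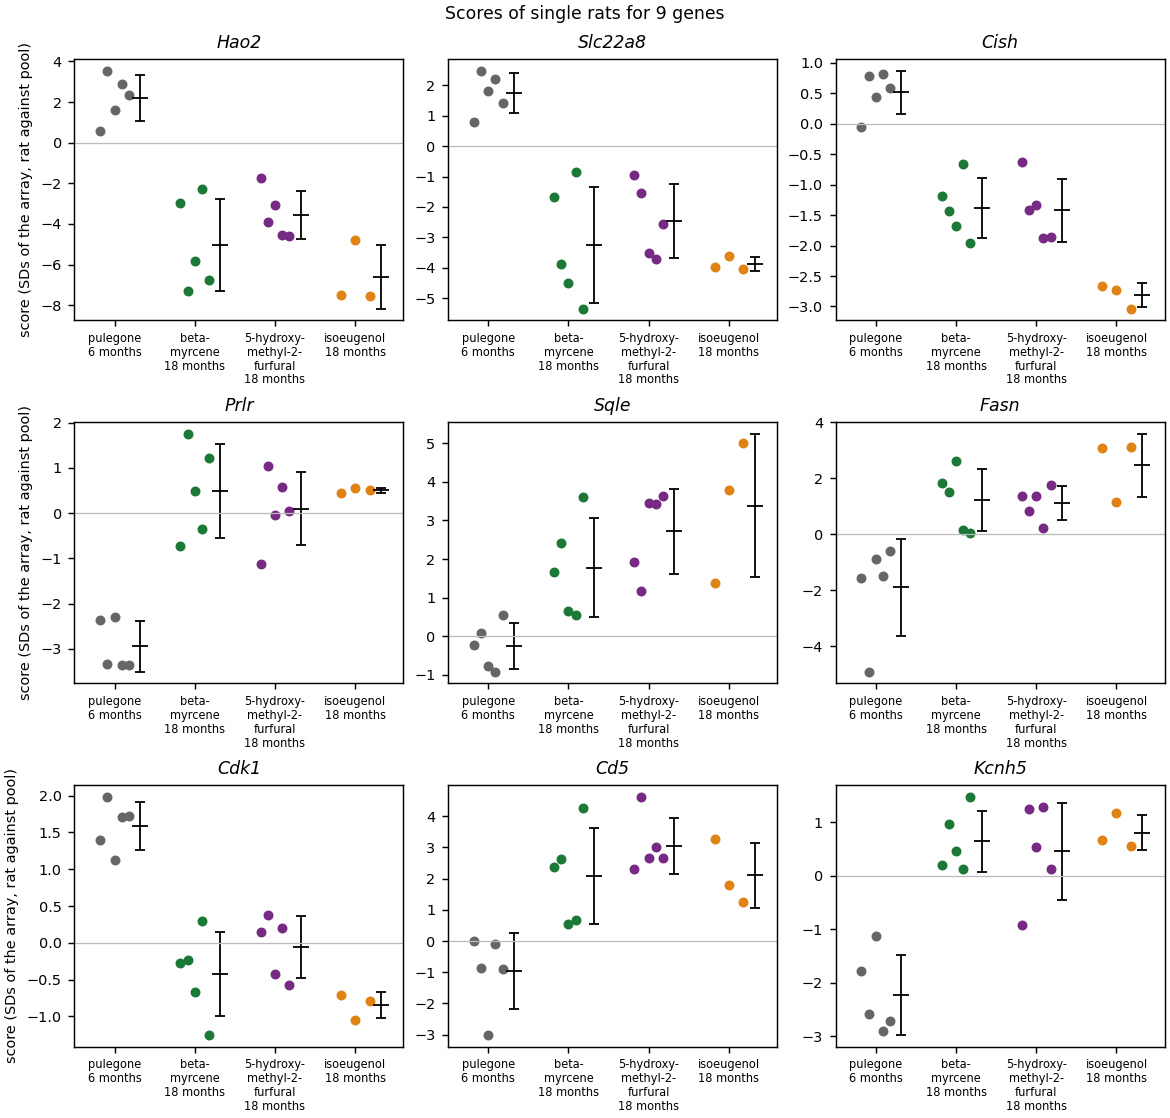
Scores of the 18 rats (y axis, in SDs of the array, rat against pool) for 9 genes, by study (x axis); points are rats, the black bar and whiskers beside them the study mean and SD. For Hao2, Slc22a8, Cish and Cdk1 all 13 older rats lie below the pulegone rats, and for Prlr, Sqle, Fasn, Cd5 and Kcnh5 all lie above them.

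The 250 bases upstream of the Cish start are shown because they carry the TTCNNNGAA motif, the letters that STAT5 recognises, in capitals. The sequence is RefSeq's on the GRCr8 build, 5′ to 3′ on the gene's strand, and the motif reads the same on both strands.
Cish, chr8:116850719-116850968, + strand: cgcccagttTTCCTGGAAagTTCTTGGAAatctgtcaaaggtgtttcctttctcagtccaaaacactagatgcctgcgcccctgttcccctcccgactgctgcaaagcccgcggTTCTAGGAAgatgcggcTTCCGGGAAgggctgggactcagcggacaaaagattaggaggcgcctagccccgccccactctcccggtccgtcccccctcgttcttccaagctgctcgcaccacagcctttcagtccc
The motif occurred 4 times, beginning 241, 230, 136 and 119 bases before the start. Of 33469 rat promoters searched over 250 upstream bases, 7.67% held it at least once, and of the 17 measured genes of the axis with a RefSeq promoter given 2 did. A match of letters is not a measured binding site.

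Of 17 cholesterol synthesis genes measured 13 rose, against 3.14% of all genes, none fell, and all 17 had a positive difference (median 1.57). Sqle, squalene epoxidase, which commits squalene to sterols, scored -0.23, 0.089, -0.77, -0.91 and 0.54 in the pulegone rats. At 18 months its scores were 1.66, 2.41, 0.65, 0.55 and 3.61 in the beta-myrcene rats, 1.93, 1.18, 3.45, 3.42 and 3.63 in the 5-hydroxymethyl-2-furfural rats and 1.37, 3.78 and 5.01 in the isoeugenol rats. The groups did not overlap, although beta-myrcene rats 3 and 4 lay close to the highest pulegone rat (difference 2.76, SE 0.61, adjusted p = 0.0121; log ratio 0.92). The others that rose spanned the pathway. They began with Acat2, which joins acetyl-CoA units (2.47, adjusted p = 0.00225), and Mvd (1.63) and Pmvk (1.24) of the mevalonate steps. Isoprenoid synthesis followed with Idi1 (2.31), Fdps (2.07) and Fdft1 (1.05). Of the steps from squalene to cholesterol, Lss (1.35), Cyp51 (1.69), Tm7sf2 (2.69), Hsd17b7 (2.17), Sc5d (1.32) and Dhcr7 (0.84) rose, with adjusted p between 0.00693 and 0.0459.

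The mean score over the 17 genes was -0.62, -0.68, -0.83, -0.997 and -0.36 in the pulegone rats. It was 0.0239, 1.15, 0.35, -0.13 and 1.76 for beta-myrcene, 0.35, 0.27, 1.11, 1.47 and 1.05 for 5-hydroxymethyl-2-furfural and 0.46, 1.39 and 2.12 for isoeugenol, all above the pulegone rats. The studies gave median differences of 1.30, 1.52 and 1.97 in that order. The count of 13 rested in part on single pulegone rats. It was 8, 7, 7 and 6 without pulegone rats 1, 2, 3 and 4, and 11 without rat 2 of the 5-hydroxymethyl-2-furfural study. None of the 17 passed in the 28 arrays (lowest adjusted p = 0.227). Among 14 genes of sterol uptake and control, such as the SREBP chaperone Scap (0.66, adjusted p = 0.085) and its retention factor Insig2 (-1.01, adjusted p = 0.0504), none passed.

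Of 19 genes of fatty acid and triglyceride synthesis, 4 rose, against 3.14% of all genes, and none fell (median difference 0.65). Fasn, fatty acid synthase, scored -1.56, -4.91, -0.89, -1.49 and -0.61 in the pulegone rats. At 18 months it scored 1.83, 1.52, 2.61, 0.15 and 0.043 in the beta-myrcene rats, 1.37, 0.82, 1.35, 0.23 and 1.77 in the 5-hydroxymethyl-2-furfural rats and 3.08, 1.16 and 3.13 in the isoeugenol rats. All older rats were above the pulegone rats, of which rat 2 was by far the lowest (difference 3.36, SE 0.61, adjusted p = 0.00257). Elovl6, which lengthens the product of Fasn, had the largest difference of the list at 6.40 (SE 1.29, adjusted p = 0.00649). For Elovl6 it was 6.56 for beta-myrcene, 4.45 for 5-hydroxymethyl-2-furfural and 9.41 for isoeugenol. Aacs, which makes acetoacetyl-CoA for lipid synthesis (difference 3.73, SE 0.91, adjusted p = 0.0223), and Gpam, the first enzyme of glycerolipid synthesis (1.42, adjusted p = 0.00511), rose as well. Of 21 fatty acid oxidation genes 1 fell, against 1.48% of all genes, and none rose. The gene was the fatty acid hydroxylase Cyp4a8 (difference -5.56, SE 1.43, adjusted p = 0.0321). At any p, 13 members were lower and 8 higher (median difference -0.16), and without beta-myrcene rat 1 the count that fell was 0. The number of synthesis genes that rose was 3 without beta-myrcene rat 1 and 8 without beta-myrcene rat 2.

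Because 13 genes of 1 pathway moved together, upstream sequence is shown for Fdps and Idi1, each with the CCAAT box (ATTGG on the other strand), bound by factor NF-Y, in capitals.
Fdps, chr2:176804817-176805066, - strand: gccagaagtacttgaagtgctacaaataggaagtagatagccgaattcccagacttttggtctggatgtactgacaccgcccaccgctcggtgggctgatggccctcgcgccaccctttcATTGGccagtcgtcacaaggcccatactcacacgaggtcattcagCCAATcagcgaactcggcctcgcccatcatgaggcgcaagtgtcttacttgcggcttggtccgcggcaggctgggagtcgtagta
Idi1, chr17:66547525-66547774, - strand: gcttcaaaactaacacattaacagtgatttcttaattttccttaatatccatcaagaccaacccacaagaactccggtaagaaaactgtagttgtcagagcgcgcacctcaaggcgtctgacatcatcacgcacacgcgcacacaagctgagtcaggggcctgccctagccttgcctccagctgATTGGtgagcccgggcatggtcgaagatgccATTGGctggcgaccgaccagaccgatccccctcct
In Fdps the box began 130 and 85 bases before the start, and in Idi1 66 and 35. Of the 14 measured cholesterol genes with a RefSeq promoter given, 11 held a CCAAT box, and of the 10 that rose 7 did, against 34% of all promoters. That share is over all 33469 promoters searched, and a share over the measured genes alone was not computed. The letters TCACNCCAC, as in a sterol response element, were in none of the 14 and in 0.974% of all promoters, which says only that these letters were not in this window.

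Of 31 cell cycle genes 7 fell, against 1.48% of all genes, none rose and 24 did not pass (median difference -0.47). Cdk1, the kinase that drives cells into mitosis, scored 1.40, 1.98, 1.12, 1.70 and 1.72 in the pulegone rats. At 18 months it scored -0.28, -0.23, -0.67, 0.30 and -1.25 in the beta-myrcene rats, 0.15, 0.38, -0.43, 0.21 and -0.58 in the 5-hydroxymethyl-2-furfural rats and -0.70, -1.04 and -0.79 in the isoeugenol rats. The groups did not overlap, and the older rats lay around the level of the pool while the pulegone rats lay above it (difference -1.96, SE 0.24, adjusted p = 0.000169; log ratio -0.66). The differences of the studies were -2.01 for beta-myrcene, -1.64 for 5-hydroxymethyl-2-furfural and -2.43 for isoeugenol. The others that fell were the phosphatase Cdkn3 (difference -2.08, SE 0.25, adjusted p = 0.000169), the ubiquitin-conjugating enzyme Ube2c (difference -2.54, SE 0.42, adjusted p = 0.00135), which acts with the mitotic ubiquitin ligase APC/C, the microtubule regulator Stmn1 (difference -2.09, SE 0.48, adjusted p = 0.0167), the mitotic kinase Plk1 (-1.26, adjusted p = 0.000683), the APC/C activator Cdc20 (-0.83, adjusted p = 0.0216) and the proliferation marker Mki67 (-0.60, adjusted p = 0.0333). Cenpf, a kinetochore protein outside the list, fell with 1 probe (-2.19, adjusted p = 0.000169) and not with its other probe (-0.0149, adjusted p = 0.99).

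The mean over the 31 genes was 0.67, 0.56, 0.36, 0.49 and 0.52 in the pulegone rats and lower in every older rat, between -0.40 and 0.11. Between the studies of 18 months it overlapped throughout. Without pulegone rat 2 the count of genes that fell was 4, and in the 28 arrays none passed (lowest adjusted p = 0.0771). In the other 6-month studies, whose direction is not settled, the list averaged -0.0334 ± 0.11 (DMPT, SD, n = 5) and -0.26 ± 0.18 (pyrogallol, SD, n = 5), against 0.52 ± 0.11 (SD, n = 5) in the pulegone rats and -0.0637 ± 0.17 (SD, n = 13) at 18 months.

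For 2 of these genes the upstream sequence is shown, with the CCAAT box and the letters TTTGAA, the core of the cell cycle element known as CHR, in capitals on either strand.
Cdk1, chr20:19265043-19265292, + strand: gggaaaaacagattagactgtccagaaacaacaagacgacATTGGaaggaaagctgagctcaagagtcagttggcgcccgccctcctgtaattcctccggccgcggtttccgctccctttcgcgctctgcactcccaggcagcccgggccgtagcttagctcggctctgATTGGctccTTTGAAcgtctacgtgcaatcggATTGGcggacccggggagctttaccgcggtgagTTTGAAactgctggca
Cdc20, chr5:137255800-137256049, - strand: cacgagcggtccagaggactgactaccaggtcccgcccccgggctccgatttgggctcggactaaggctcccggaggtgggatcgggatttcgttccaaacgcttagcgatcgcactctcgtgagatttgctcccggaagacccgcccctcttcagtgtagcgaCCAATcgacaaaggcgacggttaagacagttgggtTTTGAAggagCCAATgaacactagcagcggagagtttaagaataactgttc
In Cdk1 the CCAAT box began 210, 81 and 49 bases and TTTGAA 72 and 16 bases before the start. In Cdc20 the box began 86 and 41 bases and TTTGAA 51 bases before it. Of 24 measured cell cycle genes with a RefSeq promoter given, 19 held a CCAAT box and 10 held TTTGAA, against 34% and 16.2% of all promoters. Of the 6 that fell, all held the box and 4 held TTTGAA. The motifs were counted separately and do not overlap. Here too the shares of all promoters are over all 33469 searched and not over the measured genes alone.

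Of 28 macrophage genes 8 rose, against 3.14% of all genes, and none fell (median difference 0.65). Spp1, osteopontin, made by macrophages and bile duct cells, scored -0.47, -1.97, -2.25, -3.09 and -3.21 in the pulegone rats. It scored 3.40, 1.66, 1.31, 0.32 and 1.31 in the beta-myrcene rats, 2.46, 4.004, 2.20, -0.97 and 3.16 in the 5-hydroxymethyl-2-furfural rats and -0.17, 0.95 and -1.89 in the isoeugenol rats. Of the 13 older rats 11 lay above all pulegone rats (difference 3.57, SE 0.78, adjusted p = 0.0112), and the study differences were 3.80 for beta-myrcene, 4.37 for 5-hydroxymethyl-2-furfural and 1.83 for isoeugenol. Gpnmb, a lysosomal glycoprotein of lipid-laden macrophages (difference 2.57, SE 0.59, adjusted p = 0.0159), and Trem2, a lipid-sensing receptor (1.74, adjusted p = 0.00189), rose too. So did Cd36, Lgals3 (1.28), the cathepsins Ctsb (1.06) and Ctsd (0.80), and Hmox1 (1.12), of which Cd36 and Hmox1 stand in other lists as well. Of the defining markers, Cd68 (-0.20), Cd163 (0.43) and Csf1r (0.13) did not pass. The probe standing for Marco did not pass either (0.96, adjusted p = 0.175), while another Marco probe rose (1.13, adjusted p = 0.0389). The mean of the list was -0.27, -0.14 and -0.62 in the isoeugenol rats, below most rats of the other studies of 18 months (-0.30 to 0.74), and -0.53, -1.01, -0.58, -0.77 and -1.13 in the pulegone rats. That difference between studies passed for none of the named members in the F test (adjusted p = 0.592 for Spp1 and 0.455 for Gpnmb). Without pulegone rats 2 and 5 the count of genes that rose was 5 and 4.

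Of 34 T and NK cell genes 5 rose, against 3.14% of all genes, and none fell (median difference 0.25). Cd5, a surface receptor of T cells, scored 0.016, -0.87, -3.001, -0.10 and -0.89 in the pulegone rats. It scored 2.39, 2.63, 0.55, 0.66 and 4.25 in the beta-myrcene rats, 2.32, 4.61, 2.64, 3.01 and 2.65 in the 5-hydroxymethyl-2-furfural rats and 3.27, 1.80 and 1.25 in the isoeugenol rats. All older rats lay above all pulegone rats (difference 3.43, SE 0.59, adjusted p = 0.0017). Cd3g, a chain of the T cell receptor complex (difference 2.36, SE 0.34, adjusted p = 0.000364), Cd7 (difference 1.92, SE 0.25, adjusted p = 0.000175), the leukocyte phosphatase Ptprc (1.33) and its partner Ptprcap (0.88) rose as well, though another probe of Cd7 did not (-0.20, adjusted p = 0.877). Other T cell markers did not pass, Cd3e at 0.0777 (adjusted p = 0.851) and Lck at 0.11 (adjusted p = 0.846). The NK cell markers Klrd1 (-0.63), Ncr1 (0.19), Prf1 (0.66) and Gzma (-0.64) did not either, with adjusted p of at least 0.22. By study 3, 5 and 2 genes rose for beta-myrcene, 5-hydroxymethyl-2-furfural and isoeugenol, against 1.64%, 1.71% and 1.94% of all genes. The list mean was -0.13 to 0.34 in the pulegone rats and -0.0849 to 0.86 in the older rats, of which 8 lay above all pulegone rats. Lymphocyte genes outside the list went both ways. The receptor Cd96 (-1.21, adjusted p = 0.000794) and the T cell adaptor Sh2d2a (-2.09, adjusted p = 0.000359) fell. The receptor Klra5 rose (1.32, adjusted p = 0.0234).

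Genes of MHC class I presentation and the interferon response rose in 7 of 26 cases, against 3.14% of all genes, with none lower (median difference 0.57). They were the ubiquitin-like Ubd (difference 2.56, SE 0.42, adjusted p = 0.00114), the immunoproteasome subunits Psmb8 (1.05) and Psmb9 (0.85), the proteasome activator Psme1 (0.68), the interferon-induced GTPase Igtp (0.95), Ifit3 (0.74) and Oasl (0.58), with adjusted p of the latter 6 between 0.00447 and 0.0474. Another probe of Igtp did not pass (0.15, adjusted p = 0.748). The list mean was higher in 12 of the 13 older rats than in any pulegone rat, the exception being beta-myrcene rat 3 at -0.30 against a highest pulegone value of -0.21. The count was 4 without beta-myrcene rat 1, isoeugenol rat 2 or pulegone rats 1, 2 or 4. Of 13 MHC class II genes, 1 rose, the endosomal protease Lgmn (difference 1.27, SE 0.23, adjusted p = 0.00307).

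In the remaining cell type lists, 4 of 32 stellate and matrix genes rose, against 3.14% of all genes. They were the proteoglycan Dcn (difference 1.25, SE 0.24, adjusted p = 0.00388), the growth factor receptor Pdgfra (1.19), Timp2 (0.72) and Timp3 (0.67). That count was 1 without beta-myrcene rat 1 or pulegone rats 2 or 3, and 2 without isoeugenol rat 2 or pulegone rats 4 or 5. The markers Lrat (0.27) and Des (0.74) did not pass. Of 18 bile duct and progenitor genes 4 rose and 1 fell, against 3.14% of all genes higher and 1.48% lower. Those that rose were Anxa5 (difference 2.41, SE 0.29, adjusted p = 0.000169), Sctr, the secretin receptor (difference 1.69, SE 0.36, adjusted p = 0.00997), Aqp1 (0.77) and Spp1. Afp fell (-0.45, adjusted p = 0.0295), and Krt7, Krt19 and Epcam, at 0.20, 0.61 and 1.29, did not pass. Endothelial genes gave 1 rise in 21, a share near the 3.14% over all genes, with the adhesion molecule Icam1 (difference 0.99, SE 0.24, adjusted p = 0.0231), and with Pecam1, Kdr and Lyve1 at -0.57, 0.0685 and 0.063. The platelet chemokine Pf4, also made by Kupffer cells, was the 1 of 11 erythroid and blood genes that rose (difference 2.87, SE 0.53, adjusted p = 0.0031). Of 15 neutrophil and inflammatory genes none passed, and of 15 pancreas and gut genes 1 fell, the liver-intestine cadherin Cdh17 (difference -6.42, SE 1.77, adjusted p = 0.0482), while the pancreatic markers Prss1, Cela1 and Pnlip were at -0.22, 0.20 and 0.11. The Cdh17 call was lost in 13 of the 18 settings that leave out 1 rat. The mean of that list was 0.192 to 0.47 in the pulegone rats and -1.16 to 0.185 in the older rats, of which the highest, beta-myrcene rat 1, nearly reached the lowest pulegone rat (0.192). The bile duct list mean was -0.81 to -0.22 in the pulegone rats and higher in all 13, at -0.0237 to 0.53. What part these cells have in the other lists was not tested.

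**Figure D3:**
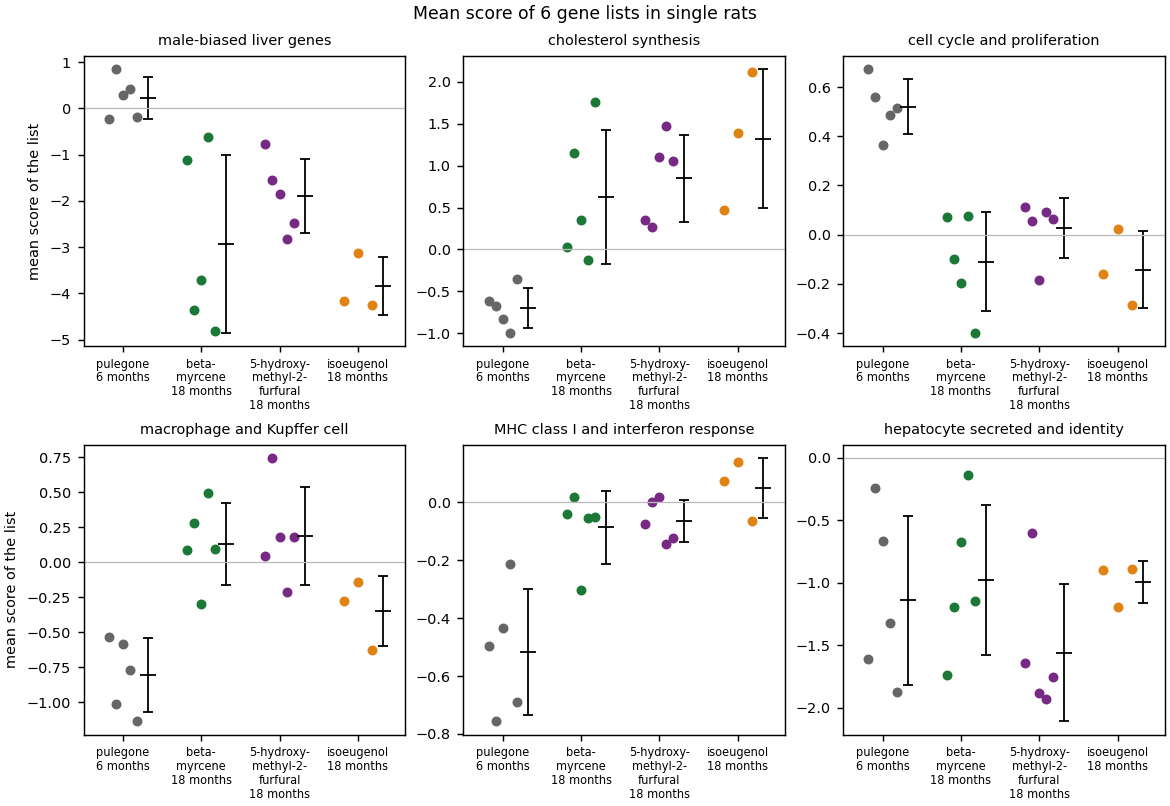
Mean score of 6 gene lists (y axis) in each of the 18 rats by study (x axis); points are rats, the black bar and whiskers the study mean and SD. All 13 older rats lie below the pulegone rats for male-biased and cell cycle genes and above them for cholesterol synthesis, and the hepatocyte list overlaps.

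Hepatocyte identity genes gave no call: of 31 measured, 17 had a negative and 14 a positive difference (median -0.15), among them Ttr (-0.19), Apoa1 (0.57), Tf (-0.90) and Ahsg (-1.32), all with adjusted p of at least 0.521. A ratio to a liver pool cannot show whether a marker was present, only whether it differed from the pool. Acute phase genes rose in 4 of 19 cases, against 3.14% of all genes: Lbp, which binds bacterial lipopolysaccharide (difference 2.81, SE 0.43, adjusted p = 0.000622), the serum glycoprotein Orm1 (difference 1.48, SE 0.35, adjusted p = 0.0195), ceruloplasmin Cp (1.45, adjusted p = 0.00949) and hemopexin Hpx (1.31, adjusted p = 0.0277). The count was 2 without beta-myrcene rat 1 or pulegone rats 2 or 5. Of 26 complement and coagulation genes, C4b (difference 1.85, SE 0.40, adjusted p = 0.0104), Cfi (difference 1.08, SE 0.19, adjusted p = 0.00259) and C1s (difference 0.87, SE 0.21, adjusted p = 0.0193) rose, against 3.14% of all genes. The count was 5 without rat 3 of the 5-hydroxymethyl-2-furfural study and 2 without pulegone rat 2. Heme and iron genes gave 3 rises in 19, against 3.14% of all genes. They were Cp and Hpx, both also in the acute phase count, and Hmox1. The heme and iron count was 1 without rat 2 of the 5-hydroxymethyl-2-furfural study or pulegone rats 1, 2 or 5.

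Among 40 drug-metabolising enzymes of phase I, 2 rose and 3 fell (median difference -0.0841), against 3.14% of all genes higher and 1.48% lower, and 35 did not pass. Beside Cyp2a1, Ces2c, Cyp2c11 and Cyp4a8, the steroid-inducible Cyp3a23-3a1 was lower (difference -3.21, SE 0.86, adjusted p = 0.0403), and its near-identical relatives may share its probe. The number that fell ranged from 0, without pulegone rat 2, to 7, without beta-myrcene rat 4 or rat 1 of the 5-hydroxymethyl-2-furfural study. It was 6 without rat 3 of the latter study and 1 without beta-myrcene rat 1, isoeugenol rat 2 or pulegone rats 1, 3, 4 or 5. Other P450 and carboxylesterase genes outside the list passed in both directions. Among them Cyp4a3 (-3.58, adjusted p = 0.00942) and Ces1c (-1.28, adjusted p = 0.0425) were lower. Cyp2c6v1 (1.61, adjusted p = 0.00136) and Ces2a (1.23, adjusted p = 0.0162) were higher. Of 23 conjugating enzymes 2 rose and 4 fell (median -0.28), against 3.14% of all genes higher and 1.48% lower. Sult1e1, which sulfates oestrogens, scored -0.79, 0.96, 0.52, 0.78 and 0.24 in the pulegone rats, all within 1 SD of the pool. It scored -4.45, -17.07, -13.54, -3.63 and -16.12 in the beta-myrcene rats, -2.48, -4.07, -4.46, -10.94 and -10.25 in the 5-hydroxymethyl-2-furfural rats and -18.68, -13.26 and -19.16 in the isoeugenol rats. All 13 older rats were lower, by margins that differed widely between rats (difference -10.94, SE 2.61, adjusted p = 0.02; log ratio -3.35), and the 5-hydroxymethyl-2-furfural rats alone did not pass (-6.78, adjusted p = 0.229).

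The methyltransferase Inmt (difference -5.72, SE 1.08, adjusted p = 0.00388), Gsta2 (-1.68, adjusted p = 0.00323) and Sult1c3 also fell, and the other 2 probes of Inmt fell with it (-3.55 and -4.16). The glutathione transferases Gsta3 (difference 3.55, SE 0.53, adjusted p = 0.000518) and Gstp1 (difference 2.28, SE 0.33, adjusted p = 0.000364) rose. Without rat 3 of the 5-hydroxymethyl-2-furfural study 4 conjugating enzymes rose. Gstp1, known in rat liver as a marker of altered foci, scored 0.62, -0.40, -0.18, -0.006 and 0.18 in the pulegone rats and between 1.22 and 4.03 in the older rats, without overlap. Of 25 oxidative stress genes 3 rose and 2 fell, against 3.14% of all genes higher and 1.48% lower. Those that rose were the extracellular superoxide dismutase Sod3 (difference 1.14, SE 0.16, adjusted p = 0.000332), the quinone reductase Nqo1 (difference 1.81, SE 0.41, adjusted p = 0.0151) and Hmox1. Those that fell were thioredoxin Txn1 (-0.66) and the peroxiredoxin Prdx5 (-0.70). The number that rose was 1 without pulegone rat 2, and no call of the 2 that fell was left without pulegone rats 2, 3, 4 or 5, beta-myrcene rats 1 or 5, isoeugenol rat 2 or rat 2 of the 5-hydroxymethyl-2-furfural study.

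**Figure D4:**
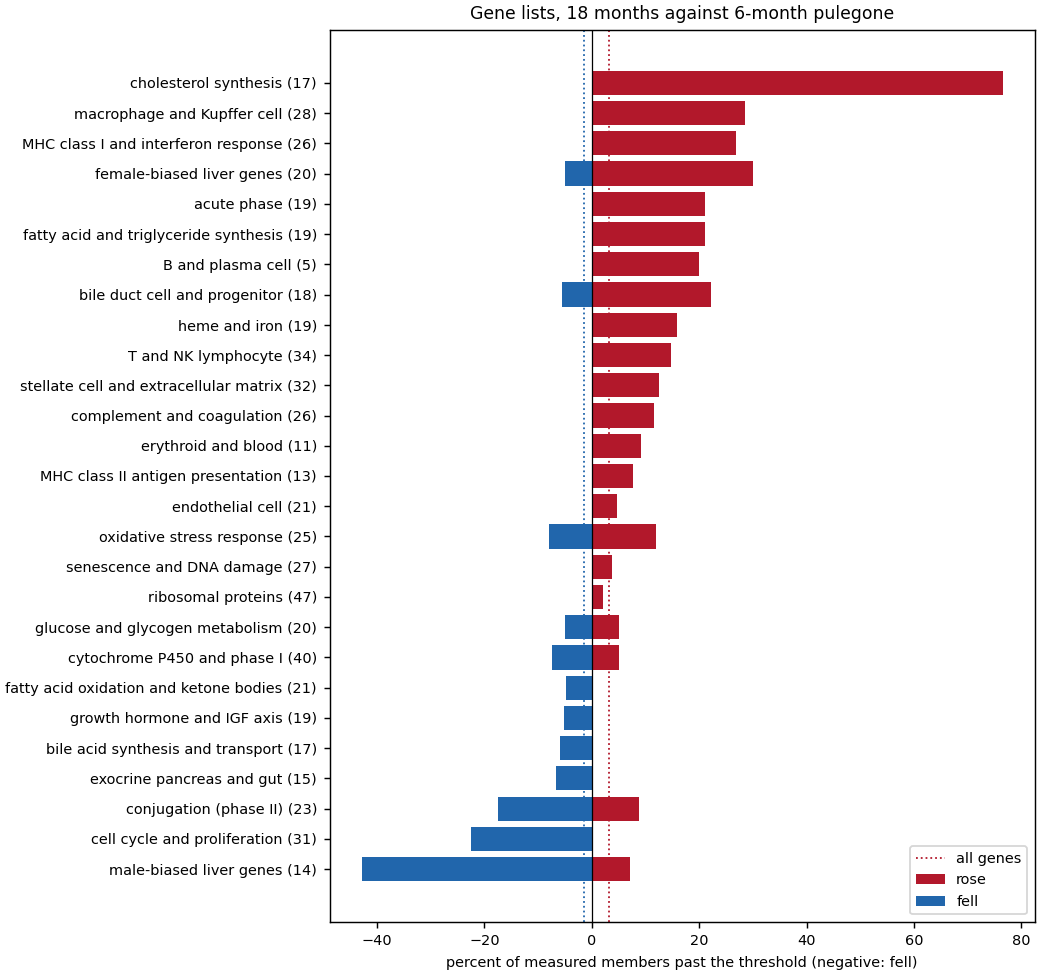
Percent of each list's measured members (number in brackets) that rose (red) or fell (blue, drawn as negative) between 6-month pulegone and 18 months at an adjusted p of 0.05; dotted lines mark the share over all 9650 genes, 3.14% higher and 1.48% lower. Cholesterol synthesis has 13 of 17 higher and male-biased genes 6 of 14 lower.

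As deposited, the DMPT and pyrogallol rats, also 6 months old, had list means near those of the pulegone rats for cholesterol synthesis (-0.67 ± 0.21 and -0.50 ± 0.32, against -0.70 ± 0.24 for pulegone, SD, n = 5 each) and for macrophage genes (-0.82 ± 0.36 and -1.10 ± 0.10, against -0.81 ± 0.26). For male-biased genes they were 0.61 ± 0.20 and 0.51 ± 0.47, against 0.22 ± 0.45. At 18 months these means were 0.87 ± 0.70, 0.0431 ± 0.36 and -2.74 ± 1.46 (SD, n = 13). Other lists stood differently. For female-biased genes the means were -0.28 ± 0.13 for DMPT and -0.35 ± 0.22 for pyrogallol, nearer the -0.29 ± 0.27 at 18 months than the -0.65 ± 0.05 of the pulegone rats. For fatty acid synthesis they were -0.47 ± 0.21 and 0.0342 ± 0.75, against -0.72 ± 0.27 for pulegone and 0.43 ± 0.40 at 18 months. With the sign of those arrays turned, each DMPT and pyrogallol mean would change sign.

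In several lists no member passed, and a single member past the threshold is a share near that of all genes (3.14% higher, 1.48% lower) in the larger lists. None passed among 30 amino acid and urea cycle genes, 29 heat shock and unfolded protein genes, 27 proteasome genes, 12 clock genes and 15 immediate early genes. Of 44 oxidative phosphorylation genes none passed, although 36 had a negative difference (median -0.24). In 47 ribosomal protein genes the median was 0.16 and Rpl5 alone rose (difference 0.70, SE 0.19, adjusted p = 0.0401). Glucose metabolism gave 1 rise, the glucose transporter Slc2a2 (0.78, adjusted p = 0.0288), and 1 fall, the regulatory kinase Pfkfb1 (-1.79, adjusted p = 0.0115), among 20 genes. Amacr, which prepares branched chains for bile acid synthesis, was the 1 of 17 bile acid genes that fell (difference -1.27, SE 0.31, adjusted p = 0.0217). Ccng1, a target of p53, was the 1 of 27 senescence and damage genes that rose (difference 1.38, SE 0.29, adjusted p = 0.00928).

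Other genes with large negative differences, past the threshold in all 3 studies of 18 months, were Marveld1, a membrane protein (difference -6.66, SE 0.86, adjusted p = 0.000181), Gimd1 (difference -5.11, SE 0.81, adjusted p = 0.000836), Nrep (difference -4.04, SE 0.65, adjusted p = 0.000942), the potassium channel Kcnk2 (difference -3.78, SE 0.59, adjusted p = 0.000684), the carbonic anhydrase Car7 (-3.73), the fatty acid binding protein Fabp7 (-3.64), Dmxl2 (-3.54), the steroid dehydrogenase Akr1c3 (-3.40), the thyroid hormone binding protein Crym (-3.38) and the repressor Jdp2 (-2.52). Marveld1 scored 0.75, 4.02, 1.90, 3.03 and 3.56 in the pulegone rats. It scored -1.55, -6.73, -4.99, -1.59 and -5.22 in the beta-myrcene rats, -1.36, -3.66, -2.90, -3.04 and -3.53 in the 5-hydroxymethyl-2-furfural rats and -6.14, -4.99 and -6.46 in the isoeugenol rats, so that every older rat was lower. Those with large positive differences included the serine protease Prss8 (difference 4.13, SE 0.78, adjusted p = 0.00388), Rtn4 of the endoplasmic reticulum (difference 4.09, SE 0.59, adjusted p = 0.000387), the phospholipase Pla1a (difference 3.65, SE 0.48, adjusted p = 0.000181) and the death receptor Fas (difference 2.56, SE 0.42, adjusted p = 0.00111). Pla1a scored -0.23, -1.95, -1.26, -1.30 and -0.23 in the pulegone rats. It scored 2.63, 2.15, 1.76, 1.66 and 2.75 in the beta-myrcene rats, 2.40, 0.78, 2.88, 3.61 and 3.13 in the 5-hydroxymethyl-2-furfural rats and 4.91, 2.37 and 3.56 in the isoeugenol rats, without overlap. Its differences were 3.19 for beta-myrcene, 3.56 for 5-hydroxymethyl-2-furfural and 4.61 for isoeugenol.

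Of the 20 genes with the smallest p, 14 rose, and several of these had small but even differences: Celf5 (1.28), Ap2b1 (1.43), Capn15 (1.64), Cav2 (1.68), Sstr4 (1.76), Kcne1 (1.92), Ccno (2.02), Pip5k1a (2.07), Ptger4 (2.26), Rnf182 (2.42) and Kcnh5 (2.83), each with an adjusted p of 0.000169 or 0.000181. Kcnh5, a potassium channel gene, scored -1.78, -2.58, -1.13, -2.90 and -2.71 in the pulegone rats. It scored 0.20, 0.97, 0.46, 0.12 and 1.47 in the beta-myrcene rats, -0.92, 1.25, 0.53, 1.28 and 0.13 in the 5-hydroxymethyl-2-furfural rats and 0.66, 1.18 and 0.56 in the isoeugenol rats, and all older rats were higher. In 13 of the 14 genes the mean of the 12-month 1,2-dibromo-2,4-dicyanobutane study lay nearer the 18-month mean and that of the 12-month bis_2-chloroethoyl_methane study nearer the pulegone mean. For Kcnh5 these means were 1.58 ± 1.69 and -1.07 ± 0.83 (SD, n = 5 each), beside -2.22 ± 0.74 (SD, n = 5) for pulegone and 0.61 ± 0.65 (SD, n = 13) at 18 months. For Ptger4, a prostaglandin receptor, they were 0.79 ± 0.86 and -1.40 ± 0.76 (SD, n = 5 each), beside -1.99 ± 0.47 (SD, n = 5) and 0.27 ± 0.60 (SD, n = 13). For both genes the 1,2-dibromo-2,4-dicyanobutane mean was above the pool and the bis_2-chloroethoyl_methane mean below it, a difference that was not tested. The 14 genes were chosen by p in the main contrast, and the count of 13 has no share over all genes to stand beside it. Other probes of Capn15 (-0.72 to 0.16) and Pip5k1a (-0.0554) did not pass.

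Among all 446 called genes, both 12-month means lay nearer 18 months in 131, only the 1,2-dibromo-2,4-dicyanobutane mean in 161, only the bis_2-chloroethoyl_methane mean in 78 and neither in 76. These genes were called for a difference between pulegone and 18 months, and that choice itself can place another study nearer 18 months. The same count over all genes was not made, so no conclusion is drawn from it. For Hao2, which passed in the 28 arrays, the 12-month means were -0.062 ± 1.39 and -2.38 ± 1.11 (SD, n = 5 each), between 2.20 ± 1.14 (SD, n = 5) for pulegone and -4.84 ± 2.02 (SD, n = 13) at 18 months. For Acsm2 they were 0.23 ± 1.15 and 0.81 ± 0.52 (SD, n = 5 each), between -1.52 ± 1.25 (SD, n = 5) and 2.55 ± 1.02 (SD, n = 13). In both genes the 12-month means lay between the others, whereas for Kcnh5 and Ptger4 1 of the 12-month means lay beyond the 18-month mean.

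**Figure D5:**
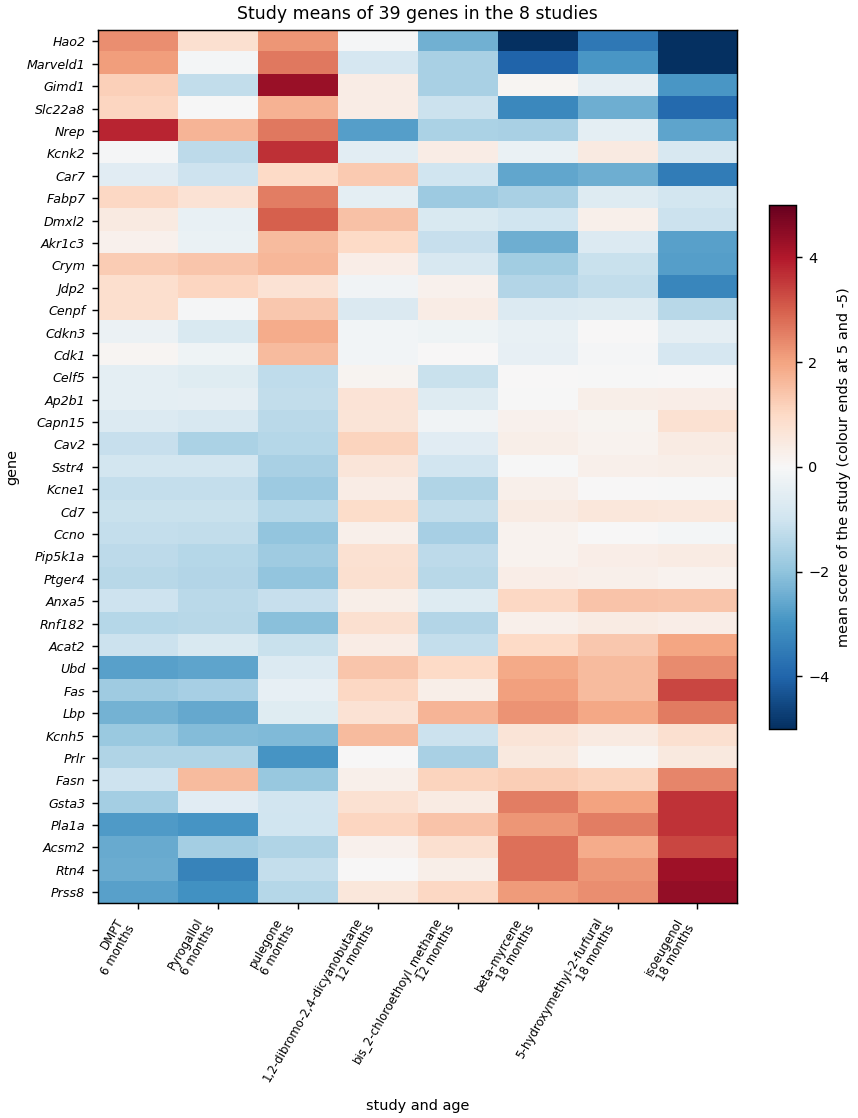
Mean score of each of the 8 studies (x axis, with age) for the 39 genes named by the smallest p or by size (y axis, ordered by the difference); red is above the pool and blue below, with the colour ending at 5 and -5. The 3 studies of 18 months share 1 colour in most rows, which the choice of genes favours. The 12-month studies, not used in that choice, differ from each other for genes such as Kcnh5 and Ptger4.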

How the data were processed

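RNA of 18 rat livers was compared, of 38 arrays in the table. The deposited values are scores on which, per the file headers and the labels, no unit is stated: the authors deposited 1 value per probe and array, with a mean near 0 and an SD near 1 on each. Tests planned for log2 ratios were therefore run on the scores. The scores lay within 0.000523 of multiples of a step fixed per array. A log ratio per array was recovered from it as an alternative, with the step assumed to be a log ratio of 0.001. Probes missing a value (5 of 20277) were kept. Of the probes 12594 carried 1 gene symbol, 5 several and 7678 none, in GEO's platform annotation, and 12572 matched RefSeq. They stood for 9650 genes, of which 2139 had more than 1 probe. 1 probe stood for a gene, chosen by missing values and then by its SD on the 20 arrays outside the comparison.

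limma 3.58.1 (R 4.3.3) fitted age with study as a random block (duplicateCorrelation), and study as a factor, with eBayes and Benjamini-Hochberg adjustment over all probes at 0.05. Python 3.11.15 with pandas 2.3.3 and matplotlib 3.10.9 made the summaries. The fits were also run on simulated data, an outcome that is not given here and on which no result above rests. The closest pair of arrays still differed by up to 6.95 in 1 probe, so no 2 arrays held the same values. Alternatives were study ignored, study means, 28 or 38 arrays, the recovered scale, median centring, quantile normalization, named probes only, trended eBayes, probe means per gene, and each rat or study left out. Named genes were the 20 with the smallest p, the 12 highest and 12 lowest of those past the threshold in all 3 studies, up to 4 of each list by size with members going against their list, the 8 with the smallest F test p, and cell type markers. Other members past the threshold were named after their values were seen. Members, lists and tests were chosen with earlier results of these data known.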

Additional observations from a re-analysis of the deposited data

Results flagged for a closer look

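Within a study of 5 rats, 1 rat stood apart from the other 4 for 20 of 480 sets of scores tested (4.2%, for 160 genes in 3 studies), by Dixon's test, which chance meets in about 1 of 20. In the beta-myrcene rats the score of the rat apart was 0.55 for Ap2b1, -2.72 for Pfkfb1, 4.03 for Gstp1, -0.055 for Igtp, 3.86 for Cyp51, -1.07 for Plk1 and -0.59 for Klrd1. In the pulegone rats the score of the rat apart was 7.03 for Kcnk2, -4.91 for Fasn, -3.85 for Prss8, 1.76 for Aacs, -1.35 for Dcn and -0.80 for Timp2. In the 5-hydroxymethyl-2-furfural rats the score of the rat apart was -0.26 for Rpl5, -1.16 for Dhcr7, 0.47 for Oasl, 1.80 for Ptprc, -0.29 for Timp3, -0.65 for Lyve1 and 0.36 for Krt7. 

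Between the 5-hydroxymethyl-2-furfural and isoeugenol rats 5 probes differed past the threshold in limma's test of that contrast: Jchain by 4.07, and 4 probes with no gene listed by 2.82, 3.54, -2.20 and -3.81. The probe that differed by 3.54 was also the 1 that passed the F test over the 3 studies of 18 months (F = 34.97, adjusted p = 0.0258).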

How the results depend on the processing

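Of the 120 genes followed one by one, none changed sign under the alternatives run. For 18 months against pulegone the 833 probes became 0 with study means, 8 in the 28 arrays, 41 with all 38 arrays, 1475 without the 5-hydroxymethyl-2-furfural study and 1420 without the beta-myrcene study, and 505 to 987 with 1 rat left out. With all 38 arrays the counts were 738 for beta-myrcene, 676 for 5-hydroxymethyl-2-furfural and 886 for isoeugenol against pulegone, 39 for the F test, 1 for beta-myrcene against each other study of 18 months and 92 for 5-hydroxymethyl-2-furfural against isoeugenol. With named probes only they were 304, 260 and 375 against pulegone, 589 for the mean of the 3 studies (901 over all probes), and 0 for both the F test and 5-hydroxymethyl-2-furfural against isoeugenol; fewer probes were tested there. On the recovered scale the F test passed for 2 and that contrast for 1, and with median centring the contrast for 1. With 1 rat left out the ranges were 281 to 717 (beta-myrcene), 212 to 485 (5-hydroxymethyl-2-furfural) and 221 to 682 (isoeugenol) against pulegone, and 552 to 974 for their mean. Among the studies of 18 months they were 0 to 131 (F test), 0 to 49 (beta-myrcene against 5-hydroxymethyl-2-furfural), 0 to 3 (beta-myrcene against isoeugenol) and 0 to 169 (5-hydroxymethyl-2-furfural against isoeugenol). The mean of the 3 studies passed for 577, 552 and 595 probes without pulegone rats 2, 4 and 5. The 94 genes called over all lists became 0 with study means, 9 with all 38 arrays, 3 in the 28 arrays and 153 without the 5-hydroxymethyl-2-furfural study, and 56 to 114 with 1 rat left out. Of those 120 genes, 118 kept the call on the recovered scale, 107 with quantile normalization, 116 with study ignored, 13 with all 38 arrays and 5 in the 28 arrays. The causes were not tested. No paired analysis was possible because the rat numbers follow accession order and pair no rats across studies. Signal over background is unknown, so dim probes could not be left out.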
